A study of Mus musculus with 2 samples.

Results

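Cytosolic ribosomal proteins were examined in liver RNA from Adipoq-/- mice, which lack the gene of the adipocyte hormone adiponectin, and from wild-type mice. Members were the rows whose gene symbol begins with Rpl or Rps followed by a digit, together with Rplp0 to Rplp2 and Rpsa. Symbols with -ps, which mark pseudogenes, and the S6 kinase symbols beginning with Rps6k were left out. This gave 82 of 13326 gene symbols, 48 named for the large subunit, 33 named for the small subunit and Rps19bp1, which encodes a protein that binds a ribosomal protein. All 82 passed the minimum of 1 FPKM in at least 1 library that left 11985 genes for comparison.

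The labels give male C57BL/6J mice aged 12 weeks that had gone without food overnight, for the Adipoq-/- and the wild-type group alike. RNA of 9 to 10 animals was combined for each genotype before sequencing, so each genotype is represented by 1 library and no spread between animals can be measured. Differences between the libraries therefore have no replicate check, and no p-value is given. Adipoq itself was not analysed here, and the genotypes rest on the labels alone. The hepatocyte markers fixed as a list were abundant in both libraries, with albumin (Alb) at 14031 FPKM in the knockout and 17522 FPKM in the wild-type library.

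The cytosolic ribosome translates the mRNAs of nuclear genes and is built from a small subunit, which decodes the message, and a large subunit, which joins amino acids. Each subunit contains ribosomal RNA and a fixed set of proteins that are needed in nearly equal numbers. In mammals the mRNAs of these proteins begin with a terminal oligopyrimidine tract, a run of C and T at the start of transcription through which the kinase complex mTORC1 and the RNA-binding protein Larp1 control their translation. In liver the amount of ribosomes falls during fasting and is restored by feeding.

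Annotated start sites from RefSeq (build GRCm38.p6, not the build of the FPKM tables) were searched for this tract, and RefSeq's table matched 60 of the 82 members by symbol. The windows printed run 5′ to 3′ from 30 bases before the annotated start to 20 bases after it. They belong to the 4 matched ribosomal subunits with the highest ratio of knockout to wild type, then the 3 with the lowest ratio, then the 3 with the longest tract. Capitals mark an unbroken run of C and T of at least 8 bases that comes within 5 bases of the start.
Rps6, chr4:86857348-86857397, minus strand: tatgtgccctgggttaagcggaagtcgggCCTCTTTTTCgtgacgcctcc
Rpl27, chr11:101442215-101442264, plus strand: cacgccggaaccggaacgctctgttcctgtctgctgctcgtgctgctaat
Rps16, chr7:28350659-28350708, plus strand: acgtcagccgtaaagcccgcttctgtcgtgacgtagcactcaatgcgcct
Rps3, chr7:99483690-99483739, minus strand: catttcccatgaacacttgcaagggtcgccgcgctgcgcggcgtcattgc
Rpl24, chr16:55966245-55966294, plus strand: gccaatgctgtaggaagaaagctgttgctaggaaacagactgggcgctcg
Rpl4, chr9:64173357-64173406, plus strand: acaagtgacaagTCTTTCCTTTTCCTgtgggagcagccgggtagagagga
Rpl23, chr11:97782420-97782469, minus strand: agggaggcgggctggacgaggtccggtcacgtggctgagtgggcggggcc
Rpl7a, chr2:26910777-26910826, plus strand: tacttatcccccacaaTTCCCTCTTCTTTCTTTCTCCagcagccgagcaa
Rpl27a, chr7:109519165-109519214, plus strand: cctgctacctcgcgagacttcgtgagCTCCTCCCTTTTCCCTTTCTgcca
Rpl35, chr2:39005112-39005161, minus strand: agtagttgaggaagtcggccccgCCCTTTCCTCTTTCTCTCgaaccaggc

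A tract was found at 21 of the 60 matched members (35.0%), against 2491 of 26965 other promoters in the table (9.24%). It was found at 678 of 7109 matched genes among those compared here (9.54%) and at 7 of 67 mitochondrial ribosomal protein genes (10.4%). An annotated start may lie some bases from the one used in liver, so a window without capitals says only that no such run lies there. Ratios overlapped between subunits with and without a tract found at the annotated start. Because a tract can be missed there, this split cannot show whether the tract goes with the ratio. The 19 ribosomal subunits with a tract had a median log2 ratio of knockout to wild type, relative to the all-gene median, of 0.60, with a range from 0.15 to 0.87, and the 36 without had 0.55, with a range from 0.12 to 0.83. Relative to genes of like length, a comparison described below, the medians were 0.32 with and 0.23 without a tract. Rps6, with a tract of 10 bases, and Rpl4, with one of 14 bases that lies wholly before the annotated start, stood at opposite ends.

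Other short strings were searched on both strands of the 300 bases from 250 before to 50 after each start, where neighbouring matches may share end bases. CCGGAAG, a core of ETS factor sites, was in 22 of the 60 member promoters (36.7%), in 9.12% of all promoters, in 19.4% of those of the genes compared here and in 34.3% of those of mitochondrial ribosomal proteins. GGGCGG, the GC box, was in 61.7% of member promoters and 35.9% of all promoters, and the share among the genes compared here was 63.4%. TATAAA was in 10.0% of member promoters, below the 14.2% of all promoters and above the 7.64% of the genes compared here. AAGATGGC, a core of YY1 sites, was in 8.33% of member promoters, 2.88% of all promoters, 5.15% of those of the genes compared here and 17.9% of those of mitochondrial ribosomal proteins.

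Transcripts of cytosolic ribosomal proteins were higher in the knockout library nearly throughout. As deposited, 77 of 82 members had a higher FPKM in the knockout library, whereas 33.1% of all compared genes did. Their FPKM ratio ran from 0.842 in Rps4y2 to 1.68 in Rps14, with a median of 1.32. Because the median log2((knockout FPKM + 1)/(wild-type FPKM + 1)) of all genes was -0.15, ratios are given relative to that median unless said otherwise. On that relative log2 scale the members had a median of 0.55, their middle 50% lay between 0.41 and 0.63, and 80 of 82 were above the all-gene median, as are 50% of all genes by construction. At least 1.5-fold higher relative to the median were 35 members, against 6.73% of all genes, and none was 1.5-fold lower, against 2.61% of all genes. No member reached 2-fold as deposited, which 0.459% of all genes did upwards and 0.759% downwards.

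The number past 1.5-fold depended on how the libraries were scaled, while the direction held for most members. With FPKM as deposited 11 members were at least 1.5-fold higher, against 3.23% of all genes, and 77 were above 0. After upper quartile scaling 15 were 1.5-fold higher, against 4.38% of all genes, and 80 were above 0. After scaling to equal summed FPKM only Rps14 of the 82 members was, against 1.58% of all genes. With equal sums 73 members were above 0, and the median log2 ratio was 0.24. The split of all genes past 1.5-fold moved as well, from 72.0% higher relative to the median to 34.4% as deposited, 50.4% after upper quartile scaling and 10.8% after scaling to equal sums. No member was 1.5-fold lower under any of these scalings. Of all 11985 genes, 739 were 1.5-fold lower as deposited, 516 after upper quartile scaling and 1559 after scaling to equal sums.

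**Figure D1:**
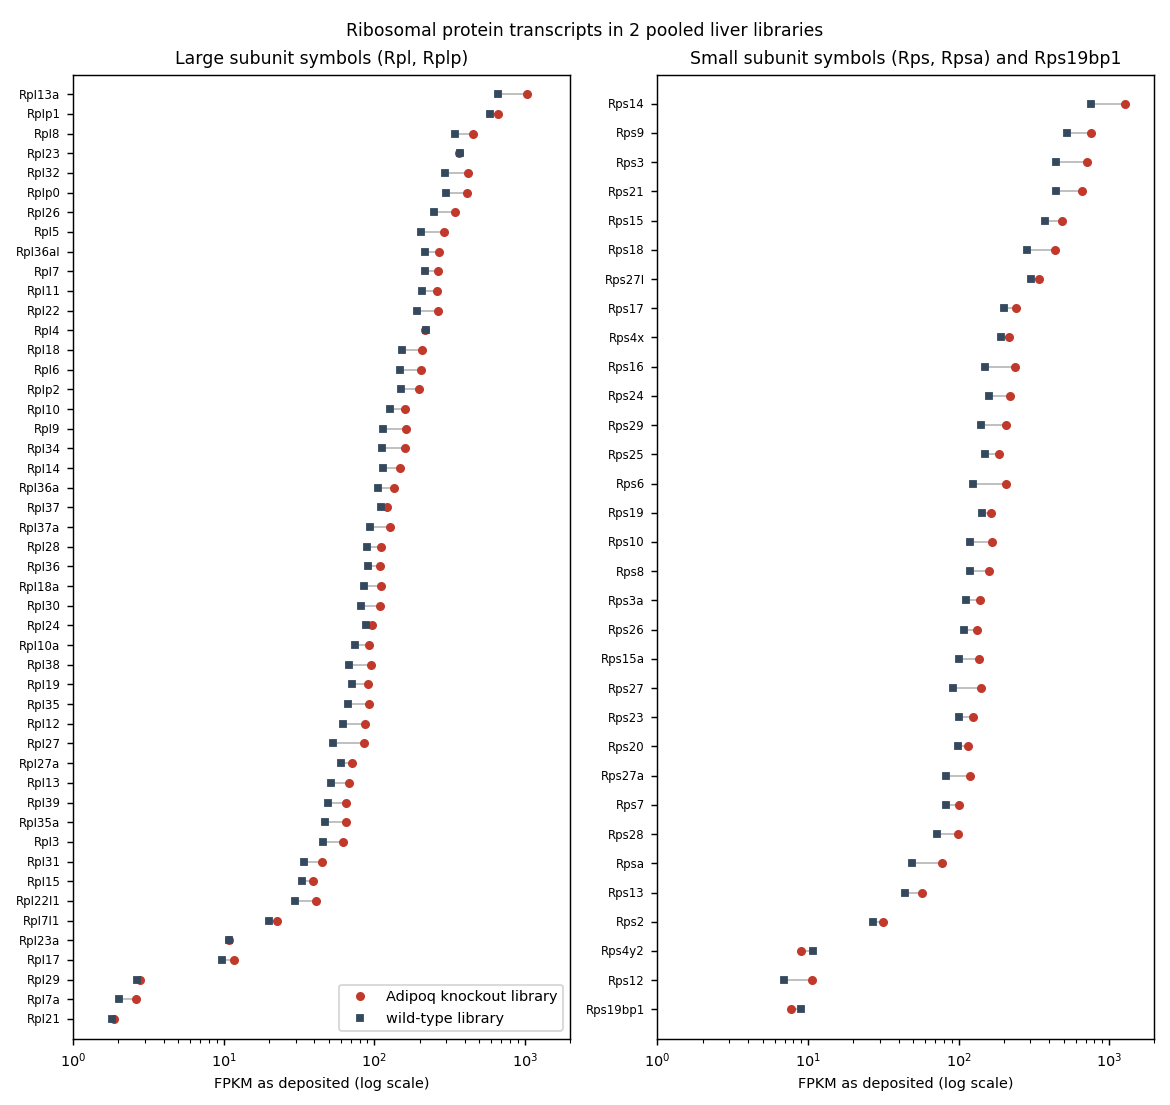
FPKM as deposited (log axis) of each of 80 members in the Adipoq knockout library (red circles) and the wild-type library (dark squares), sorted by mean level, with large subunit symbols on the left and small subunit symbols and Rps19bp1 on the right. The knockout point lies to the right of the wild-type point in 75 of 80 rows, and levels span from under 3 FPKM in Rpl21, Rpl7a and Rpl29 to the highest levels in Rps14 and Rpl13a in both libraries.

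Levels of the members differed far more among themselves than between genotypes. The median member stood at 138 FPKM in the knockout and 109.9 FPKM in the wild-type library. At 100 FPKM or more were 54 members in the knockout and 45 in the wild-type library. Rps14, a protein of the small subunit's platform, was the highest in both, at 1283 FPKM in the knockout and 762 in the wild-type library, and Rpl21 the lowest, at 1.87 and 1.81 FPKM. Below 15 FPKM in both libraries were 8 members. The order of the members was nearly the same in both libraries (Spearman rho 0.994 across 82 genes, which share their libraries and are not independent replicates). The 12 highest members held 46.4% of the members' summed FPKM in the knockout and 43.8% in the wild-type library. Together the members held 1.99% of all FPKM in the knockout library, a sum of 17713, and 1.62% in the wild-type library, a sum of 12942.

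Small subunit transcripts made up most of the upper end of the ratios. Of the 12 highest relative ratios, 10 belonged to the small subunit. Of the 12 lowest, 9 belonged to the large subunit, 2 to the small subunit and 1 was Rps19bp1. Among all 82 members, 48 are large and 33 are small subunit symbols. The 33 small subunit symbols had a median relative log2 ratio of 0.61 and 17 of them were at least 1.5-fold higher. The 48 large subunit symbols had a median of 0.54 and 18 were 1.5-fold higher. Median annotated lengths were 751 bases for the small and 834 bases for the large subunit symbols. Relative to genes of like length, a comparison described below, the medians were 0.28 for the small and 0.24 for the large subunit. Summed FPKM of the small subunit came to 9219 in the knockout and 6404 in the wild-type library, a ratio of 1.44, and that of the large subunit to 8486 and 6529, a ratio of 1.30. The summed FPKM of the large over the small subunit was thus 0.920 in the knockout and 1.02 in the wild-type library. With 1 library per genotype this difference between the subunits was not tested, and the range of each subunit's ratios overlapped the other's over most of its width.

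Among proteins of the small subunit, Rps6 is the one phosphorylated by the S6 kinases downstream of mTORC1. Its transcript stood at 206 FPKM in the knockout and 125 FPKM in the wild-type library, a relative log2 ratio of 0.87 that was second only to Rps14 (0.90). Rps3, at the side where mRNA enters the ribosome, had 711 FPKM in the knockout and 447 in the wild-type library (0.82). Rps14, Rps6 and Rps3 were each more than 1.5-fold higher in the knockout library in FPKM as deposited.

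Rps16, whose tail contacts tRNA on the ribosome, had 239 FPKM in the knockout and 149.5 in the wild-type library (0.82). Rpsa, also known as the laminin receptor precursor, had 77.1 and 49.2 FPKM (0.79). Rps27 had 142 and 91.5 FPKM (0.78) and Rps18 had 440 and 285 FPKM (0.78). Rps21 closed the 12 highest with 656 and 442 FPKM (0.72). Also among the 12 most abundant members, Rps9 (755 FPKM in the knockout and 527 in the wild-type library) and Rps15 (488 and 377) had relative log2 ratios of 0.67 and 0.52.

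Among the 31 members listed as established proteins of the small subunit, Rps4x and Rps19 had the smallest ratios. Rps4x had 216 FPKM in the knockout and 190.1 in the wild-type library (0.33), and Rps19 had 165 and 144 FPKM (0.35). The paralog Rps27l, which is not on that list, had 0.34. Mutations of RPS19 cause Diamond-Blackfan anaemia in humans. All 31 members that are established proteins of the small subunit lay above the all-gene median, and 30 of them above the median of genes of like transcript length. The exception was Rps19, 0.03 below it.

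In the large subunit, Rpl27 and Rpl13a had the highest ratios. Rpl27 had 85.5 FPKM in the knockout and 53.02 in the wild-type library (0.83). Rpl13a, which in human cells can be released from the ribosome to silence inflammatory mRNAs, had 1035 and 665 FPKM (0.79) and was the second most abundant member in both libraries. Every other large subunit transcript lay at or below 0.66.

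Rpl5 and Rpl11 together carry a small ribosomal RNA into the large subunit and, when unassembled, bind the p53 regulator Mdm2. Rpl5 had 292 FPKM in the knockout and 206 in the wild-type library (0.66), and Rpl11 had 262 and 208 FPKM (0.48). Rpl10, which joins the large subunit late in its assembly, had 159.9 and 127 FPKM (0.49). Rpl5 lay above the large subunit's median of 0.54, and Rpl11 and Rpl10 lay below it. Rpl32, with 418 FPKM in the knockout and 297 in the wild-type library (0.64), and Rpl8, with 456 and 344 FPKM (0.56), were also among the most abundant members.

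At the low end, 3 ribosomal proteins had almost the same FPKM in both libraries. Rpl23 had 364 FPKM in the knockout and 372 in the wild-type library (0.12). Rpl4, a protein lining the exit tunnel, had 219 in both libraries (218.9 in the knockout and 219.3 in the wild type, 0.15). Rpl23a, near the tunnel exit, had 10.8 in both (0.15). Rpl23 was the ninth most abundant member in the wild-type library, so its low ratio was not confined to weakly expressed genes.

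Also low were Rpl24, with 96.5 FPKM in the knockout and 88.4 in the wild-type library (0.28), and Rpl37, with 122 and 110.4 FPKM (0.30). Rpl29 (2.78 and 2.64 FPKM, 0.20) and Rpl21 (1.87 and 1.81 FPKM, 0.19) were low in level too, where the added 1 FPKM shrinks any ratio. The upper 41 members by mean level had a median relative log2 ratio of 0.61, of which 22 were 1.5-fold higher, and the lower 41 had 0.49, of which 13 were. Across the 82 members, mean level and ratio had a Spearman rho of 0.36, given as a description, since both come from the same values.

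The stalk of the large subunit, which recruits translation factors, consists of Rplp0 and the acidic proteins Rplp1 and Rplp2 on a base that includes Rpl12. Its transcripts were not alike in their ratios. Rplp0 had 415 FPKM in the knockout and 298 in the wild-type library (0.63). Rplp2 had 198 and 149.5 FPKM (0.56), Rpl12 had 86.3 and 62.3 FPKM (0.61), and Rplp1 had 665 and 586 FPKM (0.33). Rplp1 was thus among the 12 lowest ratios, while it was the third most abundant member in the wild-type library.

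Close paralogs were listed beside 4 members. Rpl22l1, the paralog of Rpl22, had 40.9 FPKM in the knockout and 29.6 in the wild-type library (0.60), and Rpl22 itself had 267 and 192 FPKM (0.63). Rpl36al had 271 and 218 FPKM (0.47), about as far apart as Rpl36a with 135 and 107 FPKM (0.49). In these pairs the paralogs had similar ratios at different levels.

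The paralogs Rps27l and Rps27 differed more. Rps27l, a p53 target gene, had 343 FPKM in the knockout and 301 in the wild-type library (0.34), against 0.78 for Rps27, and was the more abundant of the pair. Rpl7l1 had 22.5 and 20.1 FPKM (0.31), and Rpl7 had 264 and 217 FPKM (0.43). How reads shared by paralogs were assigned is not given in the sources used here, so the split within a pair is uncertain.

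The only 2 members below the all-gene median are not proteins of the ordinary ribosome. Rps4y2, which RefSeq names Rps4l and lists as a transcribed pseudogene, had 9.06 FPKM in the knockout and 10.8 in the wild-type library (-0.07). Rps19bp1 had 7.69 and 9.04 FPKM (-0.06). The 76 members that are established subunits all lay above the median, with 34 of them 1.5-fold higher.

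Some subunits lie outside the symbol rule. Gnb2l1, the gene of the scaffold protein RACK1 on the small subunit, had 940.1 FPKM in the knockout and 637 in the wild-type library (0.71). Fau, which encodes a small subunit protein fused to a ubiquitin-like protein, had 302 and 206 FPKM (0.70). With the subunits outside the rule, 79 of the 80 listed subunits were measured, and Rpl41 was not analysed here. All 79 were above the all-gene median, and 36 were 1.5-fold higher.

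Ribosomal protein genes have many processed pseudogenes, near copies of the mRNA elsewhere in the genome, and the tables list 110 such symbols. They touch the levels given above, since 49 members have at least 1 pseudogene symbol, and for 26 of these the pseudogenes summed to more FPKM than the gene in both libraries. Rpl9 had 163 FPKM in the knockout and 115 in the wild-type library, and its 6 pseudogene symbols summed to 704 and 514. Rps12, which had only 10.6 and 6.93 FPKM, had 4 pseudogene symbols with 63.9 and 40.4. Rpsa had 8 pseudogene symbols with 473 FPKM in the knockout and 297 in the wild-type library. How the authors' processing divided reads between a gene and its copies is not given in the sources used here, so the levels of these genes are uncertain. Rpl21, Rpl29 and Rpl7a, the 3 lowest members, have no pseudogene symbol in the tables. Only symbols with -ps were counted, so copies under other names or not listed were not seen. The lack of such a symbol therefore does not make a level certain.

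The pseudogene symbols showed the same direction as the genes. Of the 106 that passed the minimum, 103 lay above the all-gene median, and their median relative log2 ratio was 0.57. At least 1.5-fold higher were 50 of them, against 6.73% of all genes. They are short, with a median annotated length of 467 bases. Relative to genes of like length, a comparison described below, their median was 0.18, against 0.25 for the members. Of those with an annotated length, 90 lay above genes of like length, as did 50.1% of all genes. When each gene was summed with its pseudogene symbols, 80 of 82 members were above the median and 35 were 1.5-fold higher, with a median of 0.55. The 33 members without a pseudogene symbol had a median of 0.48, and 12 of them were 1.5-fold higher. The Spearman rho between the ratio of a gene and that of its summed pseudogenes was 0.47 over 49 genes, which may share reads.

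**Figure D2:**
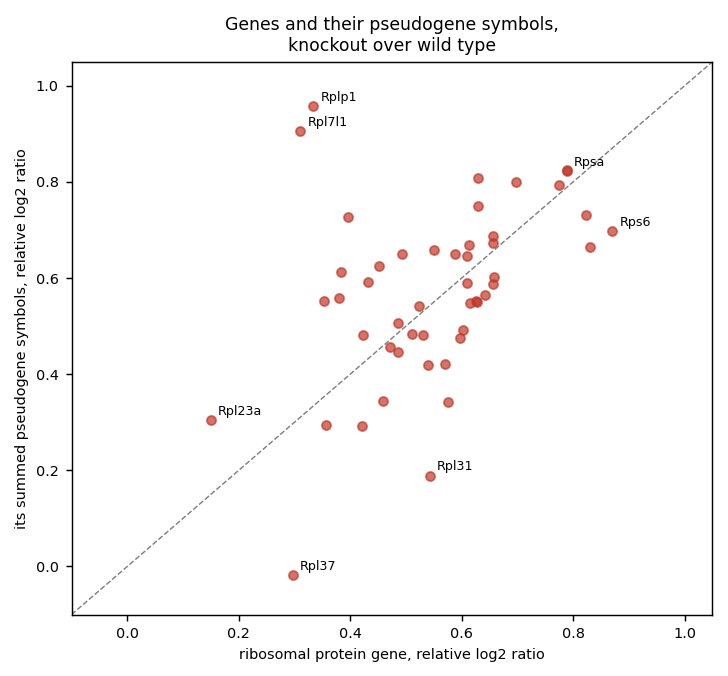
Relative log2 ratio of each of 49 ribosomal protein genes (horizontal axis) against that of its summed pseudogene symbols (vertical axis), with a dashed line of equality. Most points lie above 0.3 on both axes. Rplp1 (0.33 and 0.96) lies farthest above the line, and Rpl31 (0.54 and 0.19) and Rpl37 (0.30 and -0.02) farthest below it.

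Transcript length moved with these ratios. Across 11582 genes with an annotated length, shorter transcripts had higher ratios (Spearman rho -0.45), and the members are short, with a median of 795 bases against 2250 bases for all genes. Measured against the running median of genes of like length, 71 of 82 members were above it, as were 50.1% of all genes, and 8 were at least 1.5-fold above it, as were 2.78% of all genes. The members' median difference from genes of like length was 0.25 on the log2 scale, where their median relative to all genes was 0.55. The part of length in the members' values was not tested beyond this.

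Within bands of length, chosen after the values were seen, members stood above other genes that are neither members nor their pseudogenes. Under 800 bases, 42 members had a median relative log2 ratio of 0.60 and 1655 other genes 0.37, and 23 members were 1.5-fold higher, against 22.1% of the other genes. From 800 to under 1200 bases, 24 members had a median of 0.46 and 1006 other genes 0.19, and 4 members were 1.5-fold higher, against 9.15% of the others. At 1200 bases or more, 16 members had 0.59 and 8734 other genes -0.07, and 8 members were 1.5-fold higher, against 2.05%. Annotated lengths are approximate, and the bands and the distances from genes of like length depend on them. The longest among the members is that of Rps15a, 5179 bases. Among all members with a mean of at least 30 FPKM, 72 in number, the median was 0.57, against 0.15 for 2417 other genes at that level.

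**Figure D3:**
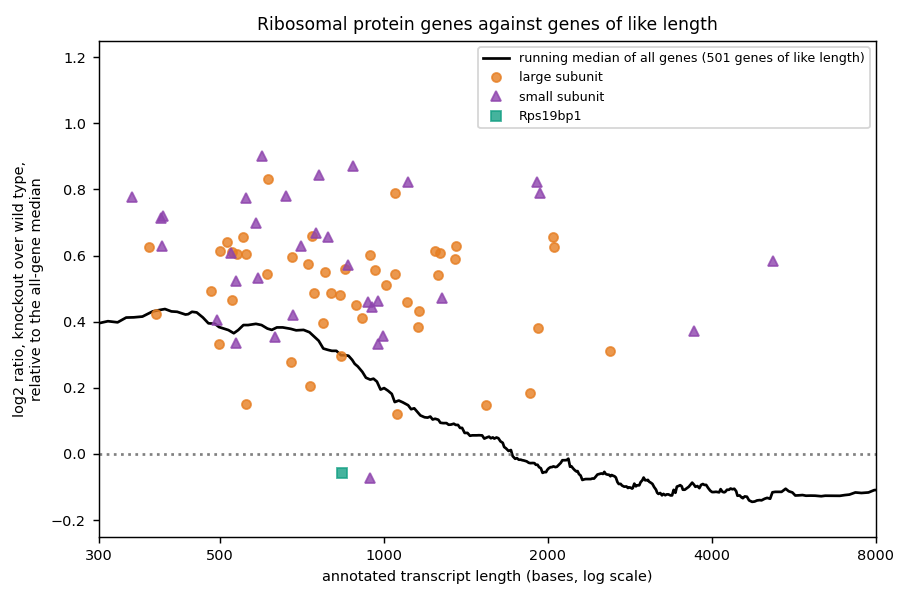
Relative log2 ratio of knockout to wild type (vertical axis) against annotated transcript length in bases (log axis) for large subunit symbols (orange circles), small subunit symbols (purple triangles) and Rps19bp1 (green square), with the running median of all genes as a black line. The line falls as length grows, and 71 of 82 members lie above it.

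The members farthest above genes of like length were Rps3 (0.85 above), Rpsa (0.83), Rps15a (0.70), Rpl5 (0.69), Rps16 (0.68), Rpl22 (0.66), Rpl13a (0.63) and Rps6 (0.59). Rps15a had 136 FPKM in the knockout and 101 in the wild-type library. These places depend on the annotated lengths, which were long in Rps15a (5179 bases), Rpl22 (2051), Rpl5 (2045), Rpsa (1938) and Rps3 (1908). Rps16 (1109 bases), Rpl13a (1047) and Rps6 (878) were shorter. A shorter transcript in use would be set against a higher median of genes of like length and lie less far above it. The 11 members below genes of like length were Rps19bp1 (-0.35), Rps4y2 (-0.30), Rpl23a (-0.24), Rpl29 (-0.16), Rpl24 (-0.10), Rplp1 (-0.05), Rpl23 (-0.04), Rps19 (-0.03), Rps27l (-0.02), Rpl36 and Rpl37, the last pair by less than 0.01.

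Genes around the ribosome showed smaller medians. The 76 mitochondrial ribosomal proteins, which build the separate ribosome of mitochondria, had a median relative log2 ratio of 0.28. At least 1.5-fold higher were 3 of them, against 6.73% of all genes. Of these 76 genes, 65 lay above the all-gene median and 52 above 0 as deposited, against 33.1% of all genes. Relative to genes of like length the median of the 76 was 0.10, against 0.25 for the cytosolic members. Of the 51 measured genes with symbols of translation factors, none was 1.5-fold higher and none lower. Their median was 0.05, and 0.08 relative to genes of like length. Above the all-gene median were 33 of them, and 16 were above 0 as deposited, against 33.1% of all genes. Among these 51 genes Eef1b2, a subunit of the factor that recharges the elongation factor with GTP, was highest. It had 382 FPKM in the knockout and 294 in the wild-type library (0.53). Next came Eef1e1 with 14.5 and 11.2 FPKM (0.50) and the initiation factor subunit Eif3i with 92.1 and 72.4 FPKM (0.49). The other measured symbols beginning with Eef were Eef1d (0.47), Eef1a1 (0.45), Eef1g (0.43) and Eef2 (0.01). Eif2s3y, a Y-linked initiation factor gene, was lowest, at 27.4 and 46.2 FPKM (-0.58), followed by the scaffold genes Eif4g3 with 4.93 and 8.60 FPKM (-0.54) and Eif4g1 with 56.5 and 78.7 FPKM (-0.32). Relative to genes of like length, Eef1b2 was at 0.57, Eef1e1 at 0.56 and Eif3i at 0.36. On the same measure Eif2s3y was at -0.56, Eif4g3 at -0.42 and Eif4g1 at -0.21. The lists of mitochondrial ribosomal proteins and translation factors were not tested against the members.

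Other mRNAs known to start with a terminal oligopyrimidine tract had a median between those of the members and of the translation factors. The list shares genes with the translation factors, among them Eef1b2, Eef1d, Eef1a1, Eef1g, Eef2 and Eif4b. Leaving out the 3 ribosomal subunits on that list, 15 of 18 lay above the all-gene median, with a median of 0.14, and none was 1.5-fold higher or lower. As deposited, 9 of the 18 were above 0, against 33.1% of all genes. Btf3, a subunit of the nascent polypeptide-associated complex, had 126 FPKM in the knockout and 95.1 in the wild-type library (0.55). The initiation factor Eif4b had 24.2 and 33.4 FPKM (-0.30), the nucleolar chaperone Npm1 had 29.4 and 36.5 FPKM (-0.15) and the poly(A)-binding protein gene Pabpc1 had 56.01 and 65.3 FPKM (-0.07). Their median annotated length was 1876 bases, and relative to genes of like length their median was 0.19.

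Genes that assemble ribosomes had a median of 0.09, and also 0.09 relative to genes of like length. Of 43 measured, 26 lay above the all-gene median and 12 above 0 as deposited, against 33.1% of all genes. Only Nip7, a large subunit assembly factor, was 1.5-fold higher (9.13 FPKM in the knockout and 6.49 in the wild-type library, 0.59). The snoRNP protein Nhp2 had 33.5 and 25.6 FPKM (0.52) and Mrto4 had 15.7 and 11.8 FPKM (0.54). Nucleolin (Ncl) had 6.60 and 10.5 FPKM (-0.44), the RNA polymerase I factor Ubtf 5.04 and 7.03 FPKM (-0.26) and Rrp9 had 4.82 and 6.64 FPKM (-0.24). This list therefore held values on both sides of the median.

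The genes of mTORC1 and of ribosomal protein control had a median of -0.07. They are long, with a median of 3099 bases, and relative to genes of like length their median was 0.03. Of 23 measured, 7 lay above the all-gene median and 3 above 0 as deposited, against 33.1% of all genes. None was 1.5-fold apart in either direction. Larp1, which binds the oligopyrimidine start, had 4.32 FPKM in the knockout and 6.17 in the wild-type library (-0.28), Akt1s1 had 34.8 and 44.6 FPKM (-0.20) and Max had 3.80 and 5.03 FPKM (-0.18). Eif4e, the cap-binding protein, had 15.7 and 13.6 FPKM (0.35), its inhibitor Eif4ebp1 had 40.6 and 37.1 FPKM (0.28) and Rragc had 14.5 and 13.9 FPKM (0.21). These are mRNA levels and say nothing of the activity of the kinase.

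**Figure D4:**
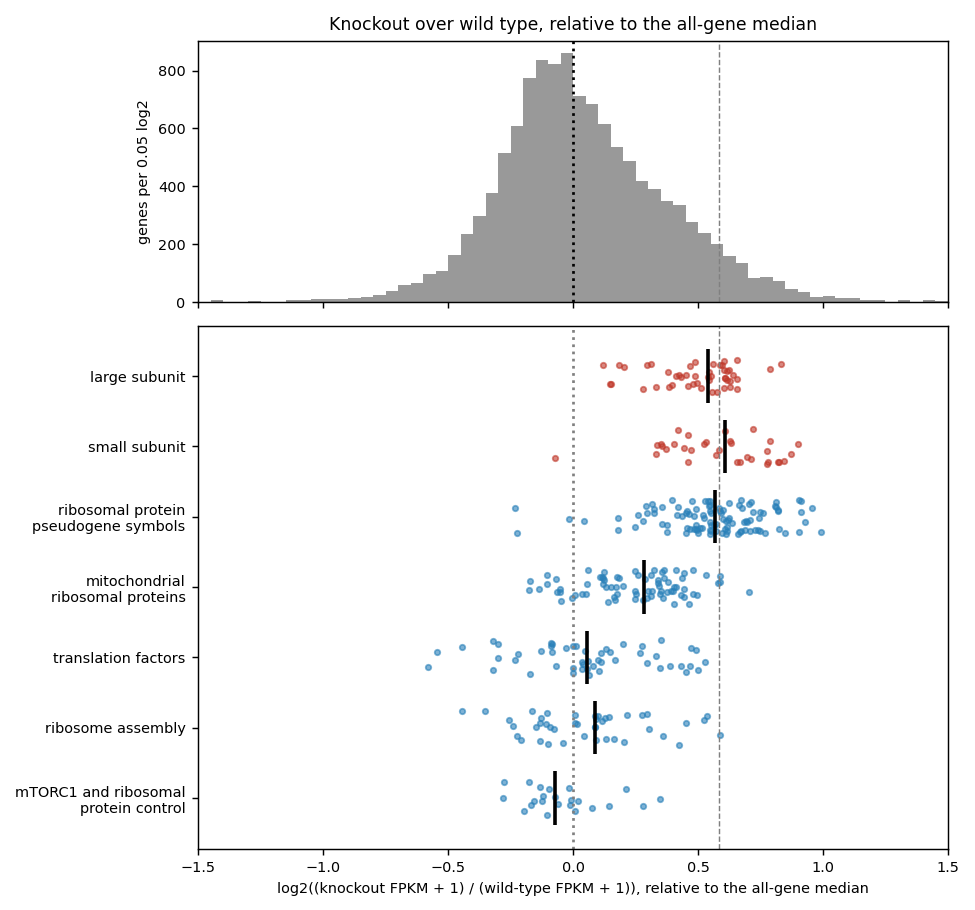
Top, number of genes per 0.05 of relative log2 ratio of knockout to wild type over all compared genes within the axis. Bottom, each gene of the large and small subunit (red) and of 5 related lists (blue) with its median (black bar), the all-gene median (dotted) and 1.5-fold (dashed). The medians are 0.54 and 0.61 for the large and small subunit, 0.57 for pseudogene symbols, 0.28 for mitochondrial ribosomal proteins and between -0.07 and 0.09 for the other 3 lists.

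In whole tissue, fewer cells of a type and less RNA per cell cannot be told apart, and markers of other cells were compared between the libraries. Summed FPKM of all gene symbols was 1.12-fold higher in the knockout library. The matching ratio was 1.19 for the Kupffer cell markers and 0.91 for the hepatocyte markers below. Kupffer cell markers, 12 of 13 in the tables, summed to 317 FPKM in the knockout and 267 in the wild-type library, with 10 of 12 above the all-gene median, 8 above 0 as deposited and none at 0. The macrophage lysozyme gene Lyz2 made up much of the difference, at 116 FPKM in the knockout and 72.5 in the wild-type library. Hepatocyte markers, 10 of 10 in the tables, summed to 37079 FPKM in the knockout and 40765 in the wild-type library, with 5 of 10 above the all-gene median. T and B lymphocyte markers, 5 of 12 in the tables, summed to 37.9 FPKM in the knockout and 49.9 in the wild-type library, with 3 of the 4 that passed the minimum above the all-gene median. The lower sum came from the immunoglobulin gene Ighm, at 7.78 and 20.2 FPKM, while Igkc had 25.5 and 25.9 FPKM and Cd4 had 2.36 and 1.08 FPKM. The part of cell makeup in the ribosomal protein values was not tested.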

How the data were processed

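Liver RNA was sequenced in 1 library per genotype, each from 9 to 10 pooled mice. The authors deposited 1 table of FPKM per library, with a gene symbol and a value in each of 13352 rows and no header. TopHat, Cuffdiff and the builds mm9 and NCBIM37 are named in the submitters' processing notes, without versions or roles, and the depth is unknown. For 26 symbols in 2 rows, none of them a member, the higher row by mean was used.

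With Python 3.11.15 and pandas 2.3.3, log2((knockout FPKM + 1)/(wild-type FPKM + 1)) was computed for genes reaching 1 FPKM in either library and centred on its median. The added 1 shrinks the ratios of weakly expressed genes. Spearman correlations used scipy 1.17.1. Lengths came from GENCODE M21 (the median of transcripts paired with a curated RefSeq entry, else of protein-coding transcripts, else the longest). Promoters of chromosome 18 were not used here. The code was tested on simulated data. Named members were the 12 most abundant, the 12 highest and 12 lowest ratios, the stalk, the paralogs and a few set members, and 3 genes from each end of other lists with at least 5 FPKM; genes named by their distance from genes of like length, the genes named among the markers, the length bands, the 30 FPKM bound and further examples were chosen after their values were seen. Some genes that this rule names are not reported here. Members and lists were chosen with earlier results of these data known. Alternatives changed the pseudocount, minimum, scaling, row choice, length and membership.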

Additional observations from a re-analysis of the deposited data

How the results depend on the processing

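The count of 35 members at least 1.5-fold higher and their median relative log2 ratio of 0.55 were recomputed under other settings. The count was 11 and the median 0.40 with FPKM as deposited, 1 and 0.24 after scaling to equal sums, and 15 after upper quartile scaling. Of all genes, 3.23%, 1.58% and 4.38% were 1.5-fold higher under these settings, in that order. Against genes of like length they were 8 and 0.25, and 8 and 0.28 when ribosomal protein genes and their pseudogenes were left out of that reference, a setting added after seeing the data. Of all genes with a length, 2.78% and 2.83% were 1.5-fold above these references. Over the 33 members without pseudogene symbols, also added later, the count was 12. Other pseudocounts, minimums, row choices, the mean and the 79 listed subunits gave counts from 25 to 40 and medians from 0.52 to 0.58. Under the other pseudocounts, minimums and row choices, 6.27% to 9.52% of all genes were 1.5-fold higher. No member is in 2 rows, so the row choices could act only through the all-gene median. The members' share of summed FPKM was 1.22-fold higher in the knockout library, and 1.33-fold without Mup symbols. A median was taken to have moved past 0.1 log2. Neither depth nor replicates are known, so none of these ranges measures sampling error. No paired analysis was possible because each genotype has 1 library.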

Other observations

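The large and the small subunit of the mitochondrial ribosome had nearly equal medians, 0.29 over 47 Mrpl genes and 0.28 over 29 Mrps genes. The highest were Mrpl14, with 213 FPKM in the knockout and 145 in the wild-type library (0.70), Mrpl53, with 117 and 86.4 FPKM (0.59), and Mrps36, with 13.1 and 9.40 FPKM (0.59). The lowest were Mrpl49, with 15.6 and 19.9 FPKM (-0.18), Mrpl47, with 4.40 and 5.76 FPKM (-0.17), and Mrpl9, with 24.6 and 30.3 FPKM (-0.14).

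Markers of further cell types were few in the tables. Erythroid markers, 5 of 7, summed to 13493 FPKM in the knockout and 11823 in the wild-type library, of which Hbb-b1, an adult beta-globin gene, gave 5953 and 5126. The erythroid ratio of 1.14 was close to the 1.12 of summed FPKM over all gene symbols. Neutrophil markers, 3 of 8, summed to 20.2 and 23.6 FPKM, sinusoidal endothelial markers, 8 of 8, to 73.0 and 69.8, stellate cell markers, 7 of 8, to 80.4 and 79.1, and cholangiocyte markers, 3 of 6, to 23.6 and 16.2. The higher cholangiocyte sum came from Spp1, at 21.01 FPKM in the knockout and 13.4 in the wild-type library, while Sox9 had 1.52 and 1.72 FPKM and Krt19 had 1.09 and 1.02 FPKM.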
